A study of Capsicum annuum with 78 samples.

Results

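RD26 is the row TC.CA.PGAv.1.6.scaffold213.1 of a read count table for leaves of the pepper Capsicum annuum, cultivar CM334, and it is 1 gene of the 35884 in that table. The row was chosen by its identifier, which the study labels with the Arabidopsis symbol RD26, and it was followed through all 26 groups of treatment and time. The leaves came from plants aged 6 weeks that were held at 40 °C (heat), held at 10 °C (cold), or given 50 mL of 400 mM mannitol or of 400 mM NaCl. Each stress was sampled after 3 and 6 h, after 12 and 24 h, and after 72 h. Mock plants, kept at 24 °C, were sampled with them and also at 0 h. Each group had 3 biological replicates, and each replicate pooled leaves of 4 plants. All groups share the cultivar, the tissue and the age, so the values describe 1 genotype. The assay was strand-specific RNA sequencing of whole leaves, in which more RNA per cell and more cells of an expressing type cannot be told apart.

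In Arabidopsis, RD26 encodes a transcription factor of the NAC family, a large family of plant DNA-binding proteins, and its transcript is known to accumulate under dehydration, high salt and abscisic acid. Abscisic acid (ABA) is the hormone that plants build up when water is short. It is bound by receptors that then block a group of phosphatases, which frees SnRK2 kinases to phosphorylate transcription factors that switch on dehydration genes. RD26 is known in Arabidopsis as a positive regulator within this response and is itself ABA-inducible, and it also takes part in leaf senescence. These roles are known from Arabidopsis and were not measured in these pepper leaves. Other genes of the ABA pathway and leaf marker genes were not analysed here, since of 48341 genes in the RefSeq annotation 0 matched an identifier of the count table, and the study's heatmap, which labels RD26, pairs symbols with a limited set of identifiers only.

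The 78 libraries held 4310398 to 7667094 counts each, with a median of 5928347, and 19588 genes had enough counts to be tested. RD26 had between 83 and 1531 counts in a library, so counting error alone gave it a coefficient of variation of 2.56% to 10.98%. Reads carried no molecular identifiers, and this error covers counting only. Levels are given as CPM, the counts of a gene per 1000000 counts of its library, scaled between libraries by the TMM method and not corrected for gene length, so they compare libraries and not genes. RD26 varied more between replicates than is usual at its level, with a pooled SD within groups of 0.22 on the log2 CPM scale, against a median of 0.12 over the 500 genes nearest to it in mean level.

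The highest mean level of RD26 was 270.3 CPM, in cold leaves at 12 h, and the lowest was 14.0 CPM, in mock leaves at 24 h, a ratio of 19.3. Of the 60 stress libraries, 55 stood above the highest of the 18 mock libraries, which had 51.9 CPM. That was true of all 15 mannitol libraries, all 15 NaCl libraries, 13 of the 15 heat libraries and 12 of the 15 cold libraries. The 3 cold libraries below that mark were those of 3 h, and the 2 heat libraries were 1 of 24 h and 1 of 72 h. In 18 of the 20 stress groups no library overlapped the mock libraries of the same time point. The exceptions were cold at 3 h and heat at 72 h.

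**Figure D1:**
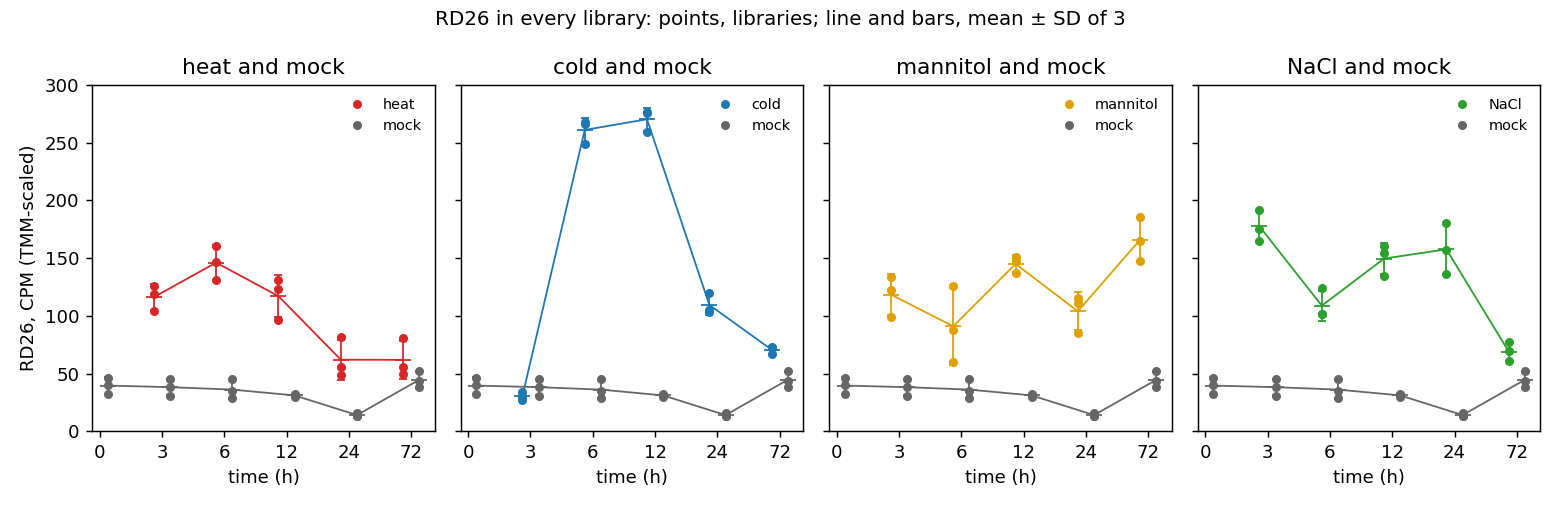
RD26 in CPM scaled by TMM (vertical axis) against time in h (horizontal axis, evenly spaced by sampling time), with 1 panel for each stress and the same mock libraries, in grey, in every panel. Points are libraries, and lines and bars are the mean ± SD of 3 libraries. Cold leaves reached means of 261 and 270.3 CPM at 6 and 12 h, while mock leaves stayed between 14.0 and 44.6 CPM.

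Whether a stress changed RD26 was asked with edgeR's quasi-likelihood test, in which every stress group was set against the mock group sampled with it. A gene was called when its adjusted p-value was under 0.05 and its log2 fold change was over 1 in size. RD26 was called higher in 16 of the 20 comparisons and called lower in 0 of them. The study lists RD26 among the top genes of mannitol and of NaCl on these same libraries, so the calls there are not independent of how the gene came to be labelled. The stresses share the mock libraries of a time point, so the comparisons at a time point are not independent of each other.

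Under heat, RD26 rose at 3, 6, 12 and 24 h. At 3 h the heat libraries had 104, 119 and 126 CPM, against 38.7, 31.0 and 44.9 CPM in mock. At 6 h the heat libraries had 131, 161 and 147 CPM, against 44.9, 28.4 and 35.0 CPM in mock. At 12 h the heat libraries had 96.6, 131 and 123 CPM, against 29.4, 31.4 and 32.2 CPM in mock. The groups stood well apart at these 3 times, with every heat library far above the highest mock library of its time. At 24 h the heat libraries had 48.9, 81.5 and 55.4 CPM, against 13.2, 15.9 and 12.8 CPM in mock. At 72 h they had 80.8, 55.6 and 49.2 CPM, against 38.7, 51.9 and 43.2 CPM in mock. The groups did not overlap at 24 h but did at 72 h, where the lowest heat library lay below the highest mock library.

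The log2 fold change of heat over mock was 1.604 ± 0.18 (SE) at 3 h, with an adjusted p of 1.75e-11 by edgeR. At 6 h it was 2.01 ± 0.18 (adjusted p = 5.72e-15, edgeR), a fold of 4.04. At 12 h it was 1.91 ± 0.18 (adjusted p = 8.46e-14, edgeR). All 3 values passed both limits for a call. The log2 fold change at 24 h was 2.15 ± 0.20 (adjusted p = 4.17e-14, edgeR). The heat level of 24 h, with a mean of 62.0 ± 17.3 CPM (SD, n = 3), lay below that of 12 h without overlap, and the mock level was also low, at 14.0 ± 1.7 CPM. Set against mock leaves of 0 h, in place of 24 h, the heat leaves of 24 h were 0.64 higher on the log2 scale, below the limit for a call. At 72 h the log2 fold change was 0.47 ± 0.18 (adjusted p = 0.0229, edgeR) and was not called. Without heat replicate 1 the estimate at 72 h was 0.23 and its adjusted p 0.312 by edgeR, and without mock replicate 1 they were 0.37 and 0.119. Of all tested genes, heat called higher 13% at 3 h and, at the later times in turn, 11.8%, 9.58%, 11.5% and 11.1%.

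Cold gave RD26 its lowest and its highest level in any stress. At 3 h the cold libraries had 27.3, 29.99 and 33.6 CPM, against 38.7, 31.0 and 44.9 CPM in mock. The ranges overlapped, with 2 cold libraries below every mock library. At 6 h the cold libraries had 266, 249 and 268 CPM, against 44.9, 28.4 and 35.0 CPM in mock. At 12 h they had 259, 276 and 275 CPM, against 29.4, 31.4 and 32.2 CPM in mock. These 6 cold libraries were the highest of all 78 and lay close to each other. At 24 h the cold libraries had 119.5, 104 and 105 CPM, against 13.2, 15.9 and 12.8 CPM in mock. At 72 h they had 72.1, 73.0 and 66.8 CPM, against 38.7, 51.9 and 43.2 CPM in mock. The groups did not overlap at either time.

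Cold over mock gave a log2 fold change of −0.34 ± 0.19 (SE) at 3 h, with an adjusted p of 0.206 by edgeR and a 95% interval of −0.72 to 0.05. At 6 h it was 2.85 ± 0.18 (adjusted p = 7.27e-21, edgeR), a fold of 7.22. At 12 h it was 3.12 ± 0.18 (adjusted p = 1.08e-22, edgeR), a fold of 8.71. RD26 thus rose between 3 and 6 h of cold, and the test of that difference is given with the other changes over time. The value at 24 h was 2.97 ± 0.20 (adjusted p = 4.83e-20, edgeR), and it was 1.46 with the mock of 0 h in place of the mock of 24 h. At 72 h it was 0.66 ± 0.18 (adjusted p = 0.000955, edgeR), past the limit on p but not on fold change. Scaling by library totals moved this last value to 1.12, and the median of all genes moved by 0.45 with it. Cold called higher 3.09% of tested genes at 3 h and 8.47%, 12.8%, 13.1% and 16.2% at the later times in turn.

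Mannitol, a sugar alcohol that lowers the water potential around the roots, raised RD26 at all 5 times. At 3 h the mannitol libraries had 134, 122 and 98.9 CPM, against 38.7, 31.0 and 44.9 CPM in mock. At 6 h they had 87.3, 59.6 and 126 CPM, against 44.9, 28.4 and 35.0 CPM in mock. The mannitol libraries of 6 h differed most among themselves of any group, with a coefficient of variation of 36.6%, yet all 3 lay above the mock libraries. At 12 h the mannitol libraries had 151, 137 and 147 CPM, against 29.4, 31.4 and 32.2 CPM in mock. At 24 h they had 85.2, 115 and 111 CPM, against 13.2, 15.9 and 12.8 CPM in mock. At 72 h they had 147, 165 and 186 CPM, against 38.7, 51.9 and 43.2 CPM in mock. The highest mannitol mean was that of 72 h, at 166 ± 19.3 CPM (SD, n = 3).

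Mannitol over mock gave a log2 fold change of 1.63 ± 0.18 (SE) at 3 h, with an adjusted p of 3.1e-10 by edgeR. At 6 h it was 1.33 ± 0.18 (adjusted p = 1.77e-07, edgeR), and it lay between 1.01 and 1.55 when single replicates were left out. At 12 h it was 2.22 ± 0.18 (adjusted p = 2.87e-15, edgeR). The call at 6 h held in each of these fits, with its lowest value, near the limit, without mannitol replicate 3. The value at 24 h was 2.89 ± 0.20 (adjusted p = 9.35e-19, edgeR), and it was 1.39 with the mock of 0 h as the baseline. At 72 h it was 1.896 ± 0.18 (adjusted p = 5.95e-13, edgeR), and mannitol was the only one of the 4 stresses with a call at that time. Mannitol called few genes higher, 1.7% of those tested at 3 h and 1.09%, 3.42%, 7.02% and 6.59% at the later times in turn.

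NaCl, which adds sodium and chloride ions to the osmotic load, raised RD26 at 3, 6, 12 and 24 h. At 3 h the NaCl libraries had 192, 165 and 176 CPM, against 38.7, 31.0 and 44.9 CPM in mock. At 6 h they had 124, 101 and 101 CPM, against 44.9, 28.4 and 35.0 CPM in mock. At 12 h they had 160.1, 155 and 134 CPM, against 29.4, 31.4 and 32.2 CPM in mock. All NaCl libraries of these times stood clear of mock, and the level of 6 h lay below those of 3 and 12 h with no overlap. The NaCl libraries of 24 h had 136, 180.0 and 157 CPM, against 13.2, 15.9 and 12.8 CPM in mock. At 72 h they had 69.2, 77.01 and 60.8 CPM, against 38.7, 51.9 and 43.2 CPM in mock. The ranges at 72 h lay next to each other without overlap.

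NaCl over mock gave a log2 fold change of 2.21 ± 0.18 (SE) at 3 h, with an adjusted p of 1.6e-15 by edgeR. At 6 h it was 1.59 ± 0.18 (adjusted p = 1.26e-10, edgeR). At 12 h it was 2.27 ± 0.18 (adjusted p = 7.97e-16, edgeR). The excess was thus large from the first sampling on. At 24 h the log2 fold change was 3.50 ± 0.20 (adjusted p = 5.31e-23, edgeR), a fold of 11.3 and the largest of the 20 estimates, although the NaCl libraries of 24 h overlapped those of 12 h in level. It was 1.99 with the mock of 0 h as the baseline. At 72 h it was 0.63 ± 0.18 (adjusted p = 0.00617, edgeR), under the limit on fold change, and without mock replicate 1 it was 0.52 with an adjusted p of 0.0606. Among tested genes NaCl called higher 5.14% at 3 h and 2.42%, 4.72%, 12.8% and 3.68% at the later times in turn.

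**Figure D2:**
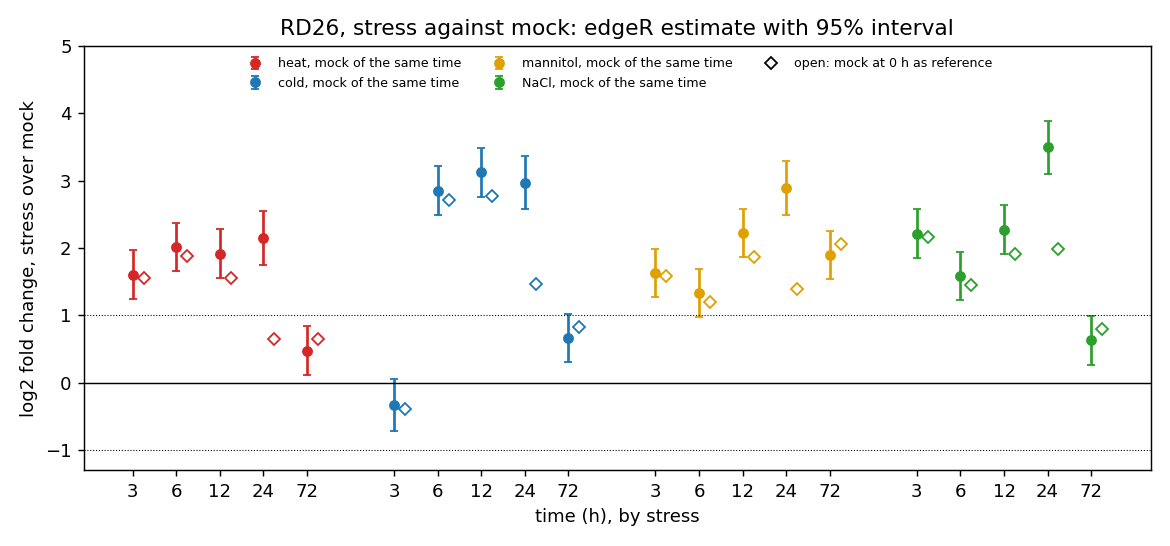
The log2 fold change of RD26, stress over mock (vertical axis), by stress and time in h (horizontal axis). Filled points are edgeR estimates against the mock of the same time with 95% intervals, open diamonds are the estimates against mock at 0 h, and dotted lines mark the limits of 1 and −1. The diamonds lie far below the filled points at 24 h, where NaCl has 3.50 with the mock of 24 h and 1.99 with that of 0 h.

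In mock leaves the estimates for RD26 fell a little over the first 12 h in the main fit, without a call. The mock libraries of 0 h had 39.998, 46.5 and 32.3 CPM. Mock at 3 h differed from mock at 0 h by −0.05 ± 0.19 on the log2 scale (SE, adjusted p = 0.908, edgeR), mock at 6 h by −0.13 ± 0.19 (adjusted p = 0.615) and mock at 12 h by −0.35 ± 0.19 (adjusted p = 0.141). None of these passed the test, and the 95% interval at 12 h was −0.73 to 0.02. Scaled by library totals the values at 3, 6 and 12 h were −0.01, 0.04 and −0.04. The median of all genes then moved by 0.04, 0.16 and 0.31. Without mock replicate 2 the values were 0.21, 0.18 and −0.22, while they stayed negative without mock replicate 1 or replicate 3. Mock at 24 h, with 13.2, 15.9 and 12.8 CPM, lay below every other library of the series, against a mean of 39.6 ± 7.11 CPM (SD, n = 3) in mock at 0 h. The log2 fold change of 24 h over 0 h was −1.504 ± 0.21 (adjusted p = 7.48e-08, edgeR), the only call among the 5 mock comparisons. Mock at 72 h was back near the start, with a log2 fold change over 0 h of 0.17 ± 0.19 (adjusted p = 0.582, edgeR). The shares of tested genes called in either direction were, from 3 h on and in order of time, 3.43%, 15.3%, 14.5%, 3.52% and 6.03%. What set the mock leaves of 24 h apart was not tested.

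Averaged over the 5 times, RD26 was higher in each stress than in mock. The mean log2 fold change was 1.63 ± 0.08 (SE) for heat, with an adjusted p of 1.25e-26 by edgeR, and 1.85 ± 0.08 for cold, with an adjusted p of 9.2e-29. It was 1.995 ± 0.08 for mannitol (adjusted p = 2.17e-29, edgeR) and 2.04 ± 0.08 for NaCl (adjusted p = 2.22e-30, edgeR). The 95% intervals were 1.47 to 1.80 for heat, 1.69 to 2.02 for cold, 1.83 to 2.16 for mannitol and 1.88 to 2.20 for NaCl. Differences between these means were not tested. The same averages called higher 9.64% of tested genes for heat, 6.15% for cold, 3.12% for mannitol and 4.86% for NaCl. Without 24 h, the time at which mock was low, the means were 1.501 for heat, 1.58 for cold, 1.77 for mannitol and 1.68 for NaCl.

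An exact two-sided permutation test over the libraries, with stress and mock exchanged within each time point, gave the same direction for RD26 alone. Over its 3200000 arrangements the exact p was 1.25e-06 for heat and 4.88e-05 for cold. It was 6.25e-07 for mannitol and for NaCl, which is the smallest p that this exact test can give. The differences in mean log2 CPM behind these were 1.61 for heat, 1.85 for cold, 1.98 for mannitol and 2.03 for NaCl.

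How the effect of a stress changed over time was asked by testing the difference between its effects at 2 times. For cold, the effect at 6 h exceeded that at 3 h by 3.19 ± 0.26 on the log2 scale (SE, adjusted p = 7.45e-15, edgeR). This was the largest of the 8 changes tested, in a contrast that called 7.71% of tested genes. For heat the same change was 0.41 ± 0.25 (adjusted p = 0.274, edgeR), for mannitol −0.30 ± 0.25 (adjusted p = 0.631) and for NaCl −0.63 ± 0.25 (adjusted p = 0.0934). None of these 3 was called, in contrasts that called 6.66%, 1.34% and 3.76% of tested genes.

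By 72 h the effect of NaCl was smaller than at 3 h by 1.59 ± 0.25 on the log2 scale, with a difference of −1.59 and an adjusted p of 3.23e-06 by edgeR, in a contrast that called 6.72% of tested genes. For heat the difference was −1.13 ± 0.25 (adjusted p = 0.000222, edgeR; 22.4% of tested genes called). The heat call was lost without heat replicate 3, at −0.83, and without mock replicate 2, at −0.81. For cold the effect at 72 h was the larger, by 1.0003 ± 0.26 (adjusted p = 0.000881, edgeR; 38.3% of tested genes called). That value sits on the limit for a call. With library totals it was 1.52, with the median of all genes moved by 0.51, and it was 0.89 without cold replicate 1, 0.97 without cold replicate 2, 0.84 without mock replicate 1 and 0.91 without mock replicate 3. For mannitol the change was 0.26 ± 0.25, with a 95% interval of −0.24 to 0.76 (adjusted p = 0.553, edgeR; 4.51% of tested genes called).

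Mannitol and NaCl were given at the same molar concentration, which is not the same osmotic strength, since NaCl dissociates into ions. At 3 h the NaCl libraries lay at 165 to 192 CPM and the mannitol libraries at 98.9 to 134 CPM, without overlap. The log2 fold change of NaCl over mannitol was 0.58 ± 0.17 (SE, adjusted p = 0.0167, edgeR). It was 0.26 ± 0.17 at 6 h (adjusted p = 0.353, edgeR), with a 95% interval of −0.08 to 0.60, and 0.05 ± 0.16 at 12 h (adjusted p = 0.934), with an interval of −0.28 to 0.37. The value at 6 h moved with single libraries, with 0.0031 without mannitol replicate 2 and 0.55 (adjusted p = 0.0292, edgeR) without mannitol replicate 3. At 24 h the NaCl libraries, at 136 to 180.0 CPM, again lay above the mannitol libraries, at 85.2 to 115 CPM, by 0.60 ± 0.17 (adjusted p = 0.00333, edgeR). None of these 4 differences reached the limit on fold change. The adjusted p by edgeR exceeded 0.05 at 3 h without mannitol replicate 3 (0.0956) or NaCl replicate 1 (0.0758), and at 24 h without mannitol replicate 1 (0.0762) or NaCl replicate 2 (0.0642).

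The order turned at 72 h. RD26 then had 69.2, 77.01 and 60.8 CPM in NaCl leaves, against 147, 165 and 186 CPM in mannitol leaves. The log2 fold change of NaCl over mannitol was −1.27 ± 0.17 (adjusted p = 1.44e-07, edgeR), the only call of the 5. It lay between −1.34 and −1.15 when single replicates were left out. The shares of tested genes called in either direction between NaCl and mannitol were, in order of time, 1.54%, 1.29%, 0.592%, 9.5% and 3.78%.

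Heat and cold took RD26 to different levels at most times. At 3 h it stood at 104 to 126 CPM in heat leaves and at 27.3 to 33.6 CPM in cold leaves, and the log2 fold change of heat over cold was 1.94 ± 0.19 (SE, adjusted p = 4.95e-14, edgeR). At 12 h it stood at 96.6 to 131 CPM in heat leaves and at 259 to 276 CPM in cold leaves, with a log2 fold change of −1.21 ± 0.17 (adjusted p = 5.77e-09, edgeR). Heat leaves thus had the higher level at 3 h and cold leaves at 12 h. Scaled by library totals the value at 12 h was −0.78 and no longer called, while the median of all genes moved up by 0.43. At 6 h the log2 fold change was −0.84 ± 0.17 (adjusted p = 1.24e-05, edgeR) and at 24 h −0.82 ± 0.17 (adjusted p = 4.33e-05, edgeR), both short of the limit on fold change. Without heat replicate 2 the value at 24 h was −1.04 and was called. At 72 h the difference was −0.19 ± 0.18, with a 95% interval of −0.54 to 0.16 (adjusted p = 0.342, edgeR). It was −0.43 (adjusted p = 0.0356, edgeR) without heat replicate 1 and −0.03 without heat replicate 3. Heat and cold leaves differed widely as a whole, with 30.3% of tested genes called in either direction at 3 h and then, in order of time, 35.1%, 34.5%, 29.7% and 35.7%.

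Set in order of mean CPM, the 26 groups formed a nearly unbroken series, and 22 of the 25 pairs of neighbours overlapped in their libraries. The gaps lay between cold at 6 h and NaCl at 3 h, between mannitol at 12 h and mannitol at 3 h, and between cold at 3 h and mock at 24 h. Cold at 12 h (270.3 CPM) and cold at 6 h (261 CPM) led the order, and their libraries overlapped. NaCl at 3 h (177 CPM), mannitol at 72 h (166 CPM), NaCl at 24 h (158 CPM) and NaCl at 12 h (149.6 CPM) came next, each overlapping its neighbour. At the low end, cold at 3 h (30.3 CPM) fell among the mock groups, which ran from 44.6 CPM at 72 h to 14.0 CPM at 24 h. The leading stress was NaCl at 3 h, cold at 6 and 12 h, NaCl at 24 h and mannitol at 72 h, and in each case its libraries stood clear of those of the stress next to it.

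**Figure D3:**
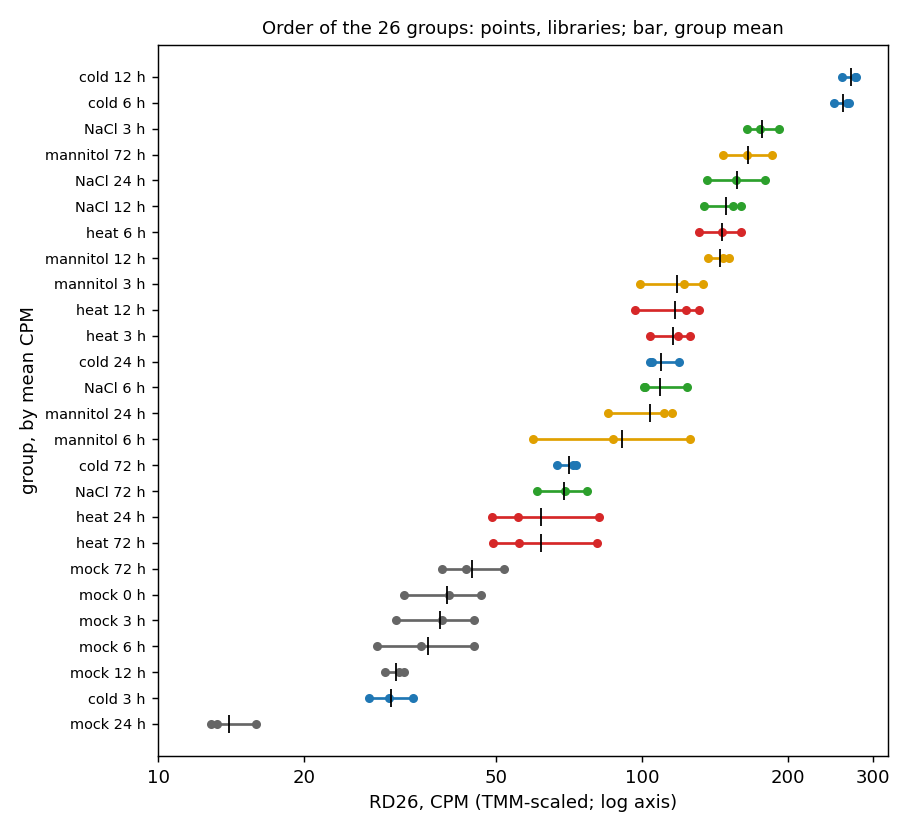
The 26 groups from the highest mean of RD26 (top) to the lowest (bottom), with CPM scaled by TMM on a log axis. Points are libraries, the coloured line is their range and the black bar is the group mean of 3. Most neighbours overlap, and mock at 24 h, with a mean of 14.0 CPM, stands alone below the rest.

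Calls in 16 of the 20 stress comparisons were rare among all genes. Counting RD26 itself, 30 of the 19588 tested genes, or 0.153%, were called higher in at least 16, the median gene was called higher in 0, and 0 genes were called higher in all 20. The study labels RD26 as a top gene of mannitol and NaCl on these libraries, so its place among the 30 is not independent of that labelling. The comparisons share mock libraries within a time point, so the 4 calls of RD26 at 24 h were made against the same 3 low mock libraries. Against mock at 0 h, cold (1.46), mannitol (1.39) and NaCl (1.99) at 24 h were still called, and heat (0.64) was not.

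The genes whose course was most like that of RD26 were found by Pearson's r over the 26 group means of log2 CPM, as a description. The points share libraries and mock baselines, so no p is given for r. Genes of highest and lowest r were picked on these same libraries, so their edgeR calls are not independent of that choice. The highest r was that of scaffold162.87, at 0.95, with a Spearman rho of 0.96, and its r over the 78 single libraries was 0.92. It is a weakly counted gene, with group means from 1.02 CPM in cold leaves at 3 h to 27.5 CPM in cold leaves at 12 h. By edgeR it was called higher in 17 of the 20 stress comparisons and lower in 1, cold at 3 h, where its log2 fold change was −1.67 ± 0.51 (SE, adjusted p = 0.0104) and that of RD26 was −0.34 ± 0.19. At 12 h of cold its log2 fold change was 3.66 ± 0.30 (adjusted p = 1.41e-16, edgeR), beside 3.12 ± 0.18 for RD26.

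The second highest r was that of scaffold567.90, at 0.91, with a highest group mean of 17.4 CPM in NaCl leaves at 3 h and a lowest of 0.155 CPM in mock leaves at 24 h. It was called higher in 16 of the 20 comparisons, as RD26 was, but it is counted still more weakly than scaffold162.87 in mock leaves. Its mock libraries of 24 h had 2, 1 and 0 counts, and its heat libraries of 24 h had 7, 48 and 4. At 72 h of heat its log2 fold change was −1.23 ± 1.10 (adjusted p = 0.352, edgeR) and at 72 h of cold −0.05 ± 0.87 (adjusted p = 0.966), where RD26 had 0.47 and 0.66. It ranked 4 when r was taken over libraries, and 26 of the 30 genes of highest r were shared by both rankings. Over the 19587 other tested genes the median r was 0.03, with 3 genes at 0.9 or above and 37 at 0.8 or above.

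At the other end, 0 genes had an r of −0.9 or below and 3 had one of −0.8 or below. The lowest was scaffold309.49, at −0.84, which had its lowest mean, 1.15 CPM, in NaCl leaves at 3 h and its highest, 17.6 CPM, in mock leaves at 24 h. By edgeR it was called lower in 14 of the 20 stress comparisons and higher in 0. Next came scaffold220.70, at −0.83, called lower in 16 and higher in 0. No symbol is used here for these 4 genes, and the one printed beside scaffold162.87 in the study's heatmap could not be read with certainty.

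**Figure D4:**
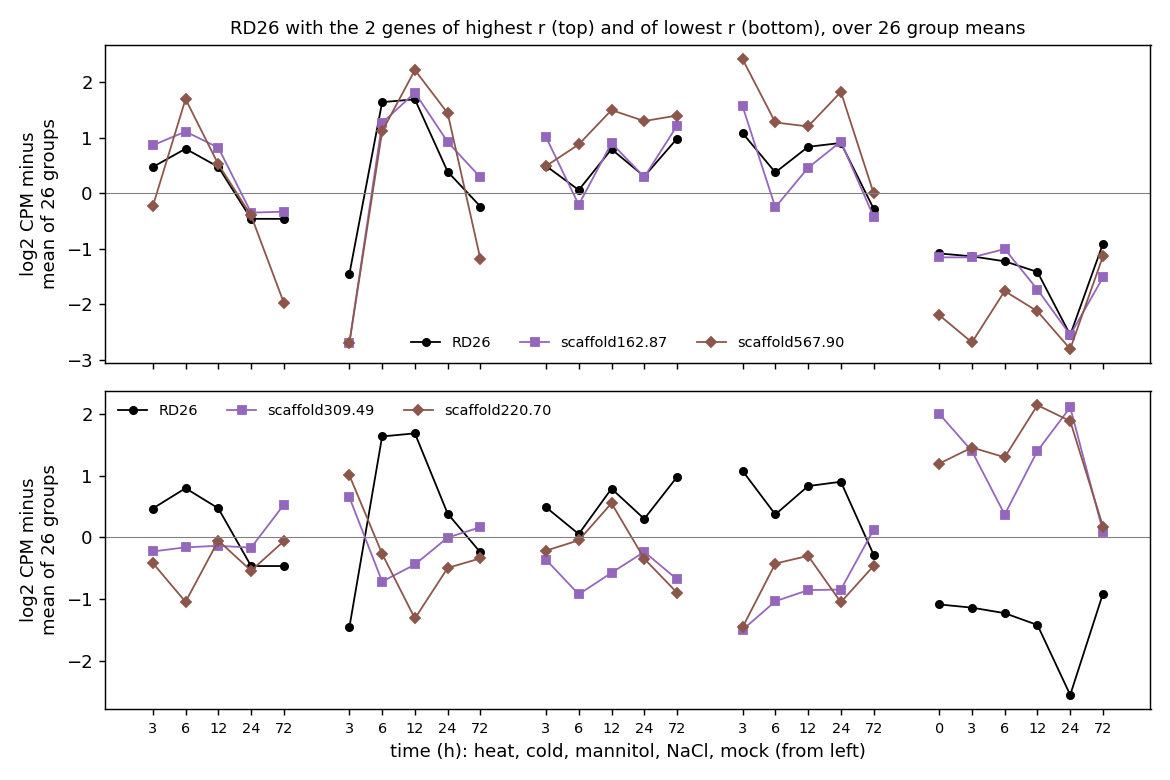
Group means of log2 CPM, each gene less its own mean over the 26 groups (vertical axis), by time in h within heat, cold, mannitol, NaCl and mock (horizontal axis, left to right). The upper panel sets RD26 beside the 2 genes of highest r, at 0.95 and 0.91, and the lower panel beside the 2 of lowest r, at −0.84 and −0.83. The upper lines share the low point in cold at 3 h and in mock at 24 h.

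HSP21 and HGO, which the study also labels, were less like RD26 in their course. HSP21, a small heat shock protein of the chloroplast, had an r of 0.13 with RD26 and ranged from 0.457 CPM in NaCl leaves at 3 h to 8359 CPM in heat leaves at 24 h. HGO, the homogentisate dioxygenase of tyrosine breakdown, had an r of 0.48 with a highest mean of 68.8 CPM in heat leaves at 6 h and a lowest of 11.7 CPM in mock leaves at 24 h. HGO thus shared with RD26 the group of its lowest mean, and its highest came under another stress.

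RD26 was also set against its own scaffold. The table holds 26 rows from scaffold213, of which 12 were tested. With RD26, the other 11 had an r from −0.19 to 0.57 (median 0.09). The row among them called higher most often was called in 9 of the 20 comparisons, against a median of 0 over all tested genes. The highest r was that of scaffold213.2, the next identifier, which had 1059 counts in all 78 libraries together. NAC genes form a large family, and how reads that fit several near-identical copies were counted is not given in the sources used here, so a share of the RD26 counts may belong to a close copy.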

How the data were processed

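Strand-specific libraries of pepper leaf RNA were sequenced by the authors as paired reads. The authors trimmed the reads with cutadapt 1.9.1 and the NGS QC Toolkit, inspected them with FastQC 0.11.5, aligned them to the CM334 genome with HISAT2 and counted them per gene with featureCounts 1.5.2. The deposited values are raw counts, whole numbers without normalization, in 78 columns that each name 1 library by treatment, time and replicate. Groups were taken from the labels.

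The counts were tested with edgeR 4.0.16 (with limma 3.58.1, under R 4.3.3). Its filterByExpr function, given the 26 groups, kept 19588 genes, and these held 99.85% or more of each library. Libraries were scaled by TMM (factors 0.835 to 1.24), and 1 quasi-likelihood fit with a factor of 26 groups and 52 residual degrees of freedom gave all 47 comparisons. Within a comparison, the Benjamini-Hochberg adjustment ran over all tested genes. Standard errors were derived from the test, as the size of the log2 fold change over the square root of its F statistic. The 95% intervals are the estimate plus or minus that error times a t quantile, with residual plus prior degrees of freedom. Log2 CPM used a prior count of 2. Biological replicates pooled plants, and their independence rests on the labels.

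The alternatives were DESeq2 1.42.0, RLE size factors, library totals, other filters, a robust fit, a replicate block, a fit per stress and leaving out single replicates. Other mock baselines and means without 24 h were chosen after seeing the data. RD26 was chosen, and the tests and lists were set, with earlier results of these data known. The named genes were RD26 by its identifier, the 2 genes of highest and of lowest r, HSP21, HGO and scaffold213.2. All pairs of replicates differed by more than counting error, with a chi-square per degree of freedom of 1.89 to 13.0. Sequences of RD26 were not used here.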

Additional observations from a re-analysis of the deposited data

Results flagged for a closer look

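Effects on RD26 that differed between stresses or between times, by edgeR's test of the difference itself, are listed here as log2 differences. Between stresses, NaCl over mannitol at 72 h was −1.27 (adjusted p = 1.44e-07, edgeR), lower in 3 of 3 NaCl libraries than in any mannitol library. Heat over cold was 1.94 at 3 h (adjusted p = 4.95e-14, edgeR) and −1.21 at 12 h (adjusted p = 5.77e-09, edgeR), so its sign turned between those times, with no overlap of libraries at either. Between times, the effect at 72 h less that at 3 h was −1.13 for heat (adjusted p = 0.000222, edgeR), −1.59 for NaCl (adjusted p = 3.23e-06, edgeR) and 1.0003 for cold (adjusted p = 0.000881, edgeR). Of these, the heat and cold values lost their calls under some alternative settings, as given below, and the cold value sits on the limit. The effect of cold at 6 h less that at 3 h was 3.19 (adjusted p = 7.45e-15, edgeR). Groups of 3 libraries are too small for a search for single deviating samples.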

How the results depend on the processing

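Of 664 values of the 47 RD26 comparisons under alternative settings, 646 kept the call, or the lack of one, of the main fit. Among these were 346 of 353 under other scalings, filters, fits and tools and 260 of 267 with a replicate left out. Values without a call count as kept even where their sign changed. No called value changed sign. Library totals moved the median of all genes by more than 0.1 on the log2 scale in 23 comparisons, by −0.31 to 0.51. With library totals cold at 72 h became called at 1.12, heat over cold at 12 h lost its call at −0.78, and the heat effect at 72 h less that at 3 h lost it at −0.91, while the cold effect at 72 h less that at 3 h was 1.52 and kept its call. The cold effect at 72 h less that at 3 h lost its call at 0.993 with RLE size factors, 0.997 without a filter, 0.973 with a filter of 1 CPM in 3 libraries and 0.992 with DESeq2, and with single replicates left out it lay between 0.84 and 1.30. With single replicates left out the heat effect at 72 h less that at 3 h lay between −1.42 and −0.81, and heat over cold at 24 h between −1.04 and −0.64. With mock at 0 h as the baseline heat at 24 h lost its call at 0.64. With the mean of the 6 mock groups as the baseline it lost it at 0.96, while cold at 72 h, at 1.15, and NaCl at 72 h, at 1.11, became called. The cause of these moves was not tested.

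The labels do not say whether the replicate numbers pair stress and mock libraries, and the main fit used no pairing. Over 60 pairs of same-numbered stress and mock libraries the correlation of deviations lay between −0.28 and 0.29, with 5 over 0.1. With the replicate block, 0 of the 47 calls changed, and the largest move of a log2 fold change was 0.0045. That block fits a shift per replicate number shared by all groups, so it cannot show pairing within a time point. Depth limited little, since RD26 had at least 83 counts in every library.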
